A study of Mus musculus with 6 samples.

Results

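The genes described here are 9 that build the egg coat, mark the egg surface or are secreted by the egg: Zp1, Zp2, Zp3, Cd9, Astl, Izumo1r, Oosp1, Gdf9 and Bmp15. They were taken from a list of names that was drawn up with earlier results of these data known, and all 9 were found by Ensembl identifier among the 36065 genes of the deposited table. RNA came from wild-type mouse 1-cell embryos (zygotes) cultured in vitro in 3 groups of 2 biological replicates. The DMSO group received the solvent alone, the CBR group received CBR-5884, an inhibitor of serine metabolism, and the CBR+SAM group received CBR-5884 with S-adenosylmethionine (SAM), the donor of methyl groups for histone, DNA and RNA methylation. The labels give no strain, inhibitor or SAM concentration, culture time or number of embryos per library, and there was no group with SAM alone.

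The zona pellucida is the glycoprotein coat around the mammalian egg, and in the mouse it is built from ZP1, ZP2 and ZP3, which the growing oocyte secretes. Sperm bind to this coat, pass it, and then meet the egg membrane, where JUNO, the product of Izumo1r, binds IZUMO1 on the sperm and the tetraspanin CD9 is needed for the membranes to fuse. After fertilisation the egg releases the protease ovastacin, encoded by Astl, from its cortical granules, and ovastacin cuts ZP2 so that further sperm no longer bind. GDF9 and BMP15 are growth factors of the TGF-beta family through which the oocyte acts on the granulosa and cumulus cells around it, and OOSP1 is a small oocyte-secreted protein. These genes are transcribed in the growing oocyte, so transcripts in a zygote are largely a maternal store.

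The upstream sequences of a zona gene and of the most abundant of the 9 genes are shown first, because an E-box, the CANNTG element bound by basic helix-loop-helix factors, is known to drive zona genes in oocytes through the factor FIGLA. RefSeq start sites on GRCm38.p6 were available for 6 of the 9 genes, and those of Zp1, Zp2 and Gdf9 were not used here. Each sequence below is the 250 bases before the start site, printed 5′ to 3′ on the strand of the gene, with matches to CANNTG (the same on both strands) and to TATAA (either strand) in capitals.
Zp3 (chr5:135979855-135980104, plus strand): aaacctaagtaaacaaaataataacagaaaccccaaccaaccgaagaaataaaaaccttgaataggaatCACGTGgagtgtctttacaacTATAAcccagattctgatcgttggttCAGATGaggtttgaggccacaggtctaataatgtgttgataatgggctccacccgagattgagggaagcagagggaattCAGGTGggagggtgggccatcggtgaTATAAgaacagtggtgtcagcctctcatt
Oosp1 (chr19:11691052-11691301, minus strand): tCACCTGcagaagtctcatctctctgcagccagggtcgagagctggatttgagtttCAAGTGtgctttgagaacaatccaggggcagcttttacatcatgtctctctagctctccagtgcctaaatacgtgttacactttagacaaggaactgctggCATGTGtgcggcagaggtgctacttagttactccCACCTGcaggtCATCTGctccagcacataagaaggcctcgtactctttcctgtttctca

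Zp3 held 3 E-boxes, which began 181, 134 and 55 bases before the start site, and the first of them had the palindromic form CACGTG. Matches to TATAA in Zp3 began 160 and 29 bases before the start. Oosp1 held 5 E-boxes and no TATAA. Among all 32851 RefSeq upstream windows of this length, 66.2% held CANNTG, 6.02% held CACGTG and 22.8% held TATAA on either strand. In the remaining windows Cd9 had 3 E-boxes, Izumo1r 1, Bmp15 1, and Astl 3 before 1 of its 2 start sites and 0 before the other. TAATTG, a core bound by the oocyte homeobox factor NOBOX, occurred in none of these 7 windows and in 7.17% of all windows, on either strand. These matches describe letters, not bound sites.

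The ends of the messages were also read, since stored oocyte mRNAs can carry a cytoplasmic polyadenylation element (TTTTAT or TTTTAAT), through which their tails are lengthened, close to the polyadenylation hexamer (AATAAA). The last 100 bases of the principal GENCODE M21 transcript held AATAAA in all 9 genes, against 64.9% of the 10981 protein-coding genes tested below, on the sense strand. A cytoplasmic element was found in that window in Gdf9 alone, where TTTTAT began 16 bases before the hexamer, against 19.3% of the same 10981 genes. In Oosp1 the AATAAA began 93 bases before the annotated end. An element before it could hardly be found there, since little of the window lay upstream. The stretches of 30 bases around the hexamer are shown for Gdf9 and the zona genes, with both elements in capitals, and the annotated ends may differ from those used in oocytes.
Gdf9: gtggTTTTATgtgacggaagAATAAActgt
Zp1: atcagatattaaatggactcAATAAAccat
Zp2: aatcactgattggacttgcaAATAAAgaga
Zp3: ctaccttgtatcccttccgcAATAAAagaa

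The transcripts of the 9 genes spanned a 289-fold range of level, from Oosp1 with a mean of 3931 ± 501 over the 6 libraries to Astl with 13.6 ± 1.72 (SD). Levels are the deposited abundance values, whose unit and scaling are not given in the sources used here. They appear to be divided by transcript length and resemble TPM, a measure of relative transcript number. Genes are therefore set side by side only approximately, and how evenly their transcripts were captured in the cDNA was not tested. All 9 genes stood above 1 in every library and all passed the filter on low values. Between these ends came Bmp15 (1359 ± 118), Cd9 (330.3 ± 22.6), Gdf9 (270.2 ± 21.3), Izumo1r (141.9 ± 13.8), Zp3 (60.6 ± 3.56), Zp2 (59.7 ± 3.21) and Zp1 (17.2 ± 1.78). Oosp1 ranked 38 and Bmp15 102 among all protein-coding genes, while Zp1 and Astl ranked 4356 and 4890. Of the 8 neighbouring pairs in this order, 3 had ranges that overlapped: Cd9 and Gdf9, Zp3 and Zp2, and Zp1 and Astl. Cd9 was nevertheless above Gdf9 in 6 of 6 libraries, Zp1 above Astl in 5, and Zp3 above Zp2 in 4. Oosp1 supplied 59.1% to 69.8% of the summed value of the 9 genes, and that sum was 0.554% to 0.659% of each library.

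**Figure D1:**
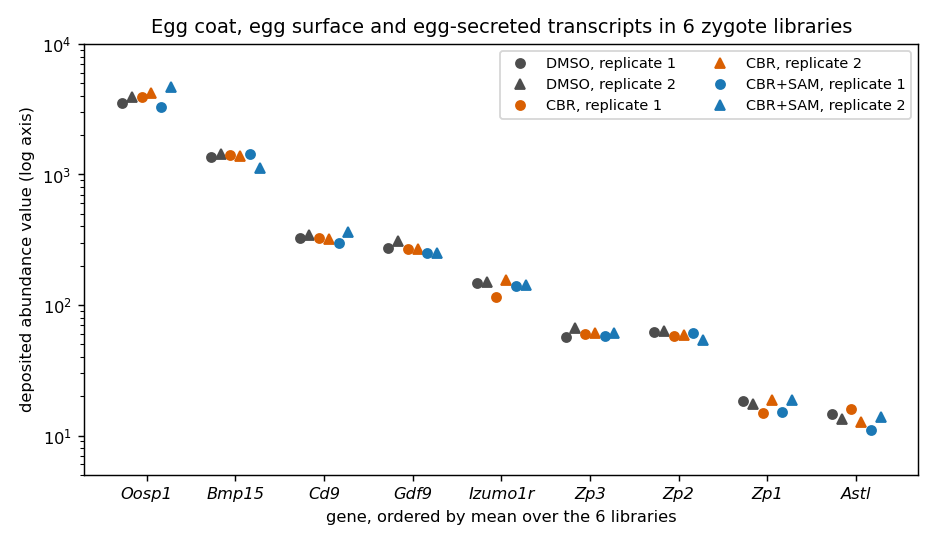
Deposited abundance value (log axis) of each of the 9 genes in each library, with genes ordered by their mean; colour marks the group and symbol the replicate. The points of a gene lie close together beside the 289-fold range between genes, and the widest spread on the log2 scale is that of Oosp1.

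The levels varied little between libraries. In such bulk libraries, fewer cells of a type and less RNA per cell cannot be told apart. The SD of log2(value + 1) over the 6 libraries ran from 0.078 in Zp2 to 0.18 in Oosp1, with a median of 0.13 over the 9 genes, against 0.18 over the 5939 genes whose mean was 10 or more and 0.21 over all 12249 genes tested. Of the 9 genes 8 lay below 0.18. The means of the 9 reached 3931, and genes matched to them in level were not compared. Low values of genes with a single transcript fell on steps, and 81.0% to 82.3% of those of up to 10 reads were within 0.1 of a whole number, against 20% for values spread evenly. Doubling the step lowered this to 32.9% to 37.3%. By that step Zp1 and Astl rested on approximately 602 to 871 and 598 to 816 reads per library, and Oosp1 and Bmp15 on 69258 to 101138 and 80954 to 101852. These numbers are estimates, since the step and a fragment length were chosen to make that share of whole numbers as large as possible. The 20% holds for a step not chosen so and is no test of the fit. Library totals were not given in the sources used here.

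The 3 zona genes are on different chromosomes of mm10, Zp1 (ENSMUSG00000024734) on chromosome 19 at 10914287 to 10920632, Zp2 (ENSMUSG00000030911) on chromosome 7 at 120126772 to 120145291, and Zp3 (ENSMUSG00000004948) on chromosome 5 at 135980099 to 135988624. Zp2, whose protein is the target of ovastacin, was measured at 62.5 and 62.8 in the DMSO libraries, 58.3 and 58.7 in the CBR libraries and 61.3 and 54.4 in those of CBR+SAM. Both DMSO values were above the other 4. Zp3 was measured at 56.7 and 67.1 in the DMSO libraries, 59.8 and 60.7 in the CBR libraries and 58.3 and 60.9 in those of CBR+SAM. Its lowest and highest value both came from DMSO, so the groups overlapped. Zp1, which cross-links the filaments formed by the other zona proteins, was measured at 18.4 and 17.4 in the DMSO libraries, 15.0 and 18.6 in the CBR libraries and 15.0 and 18.7 in those of CBR+SAM. The replicates of both groups given the inhibitor lay further apart than those with DMSO, and the groups overlapped. Within a library, Zp2 was 2.91 to 4.08 times Zp1, Zp3 was 3.07 to 3.998 times Zp1, and Zp3 was 0.907 to 1.12 times Zp2. Zp4-ps, the remnant of the zona gene Zp4 in the mouse, had a mean of 10.5 (range 9.25 to 13.3).

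Of the sperm-facing genes, Cd9 (ENSMUSG00000030342, chromosome 6 at 125460266 to 125494791) was measured at 323.8 and 345.0 in the DMSO libraries, 328.6 and 322.6 in the CBR libraries and 297.5 and 364.4 in those of CBR+SAM. The CBR+SAM replicates held both its lowest and its highest value. Of the sequence of 31 bases at each position of its principal transcript, 6.26% also occur in the pseudogene Cd9-ps, which stood at or below 0.0699, so little signal was assigned to that copy. The predicted gene Gm26728 shares 15.7% of them and was not analysed here. Izumo1r (ENSMUSG00000031933, chromosome 9 at 14885814 to 14903949) was measured at 148.5 and 149.6 in the DMSO libraries, 116.0 and 155.4 in the CBR libraries and 140.6 and 141.3 in those of CBR+SAM. CBR replicate 1 was low and CBR replicate 2 the highest of the 6, while the other groups were tight. Astl (ENSMUSG00000050468, chromosome 2 at 127338639 to 127357651) was measured at 14.6 and 13.5 in the DMSO libraries, 16.1 and 12.6 in the CBR libraries and 11.0 and 13.8 in those of CBR+SAM. All 3 groups of Astl overlapped.

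Oosp1 (ENSMUSG00000041857, chromosome 19 at 11667460 to 11691150) was measured at 3560 and 3902 in the DMSO libraries, 3943 and 4213 in the CBR libraries and 3266 and 4701 in those of CBR+SAM. Both CBR values were above both DMSO values, and the CBR+SAM replicates were the lowest and the highest of all. The related genes Oosp2 and Oosp3 were also abundant, with means of 909.5 and 4443. Oosp1 was 0.800 to 0.961 times Oosp3 within a library, with both of the lowest ratios in CBR+SAM.

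Gdf9 (ENSMUSG00000018238, chromosome 11 at 53431023 to 53437904), the growth factor needed for follicle growth beyond its first stages, was measured at 275.2 and 307.7 in the DMSO libraries, 270.9 and 268.0 in the CBR libraries and 249.3 and 250.3 in those of CBR+SAM. The groups descended in that order without overlap. This order was noticed after the values were seen, and 65 of the 12249 genes tested (0.531%) showed it. The reverse order was shown by 94 (0.767%), and other orders of the groups were not counted. Bmp15 (ENSMUSG00000023279, chromosome X at 6314107 to 6320721), its partner in signalling, was measured at 1368 and 1441 in the DMSO libraries, 1417 and 1378 in the CBR libraries and 1426 and 1126 in those of CBR+SAM. Only CBR+SAM replicate 2 stood apart, as the lowest of the 6. Bmp15 was 4.50 to 5.72 times Gdf9, and both ends of that range came from the CBR+SAM replicates.

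**Figure D2:**
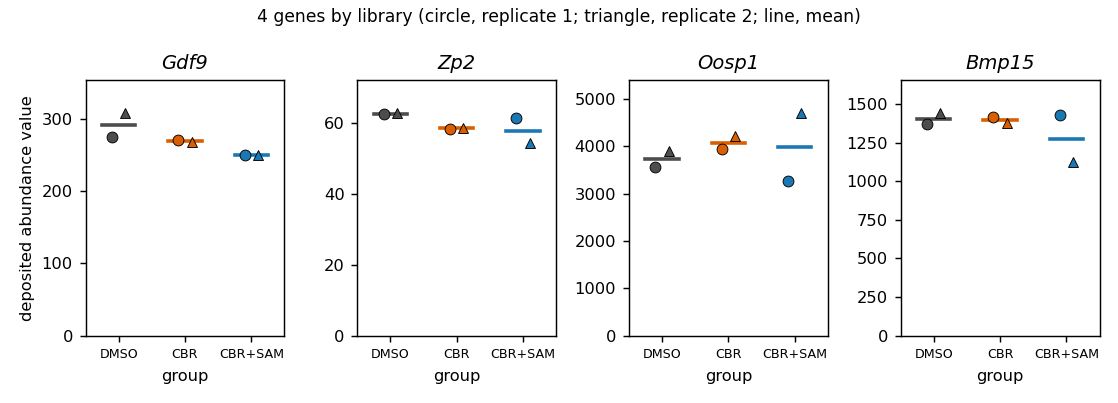
Deposited abundance value (linear axis from 0) of Gdf9, Zp2, Oosp1 and Bmp15 by group; circles are replicate 1, triangles replicate 2 and lines the group means. Gdf9 descends from 291.5 with DMSO to 249.8 with CBR+SAM without overlap, while Oosp1 and Bmp15 spread widely between the CBR+SAM replicates.

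Of the 5939 genes whose mean was 10 or more, 5573 had a protein-coding principal transcript. Over these 5573 genes the log2 difference between replicates had an SD of 0.450 in CBR+SAM, 0.258 in DMSO and 0.269 in CBR. Among the 9 genes the gap between replicates was widest in CBR+SAM for 4 (Zp2, Cd9, Oosp1 and Bmp15), in CBR for 3 (Zp1, Astl and Izumo1r) and in DMSO for 2 (Zp3 and Gdf9). In CBR+SAM the log2 difference of replicate 2 from replicate 1 was 0.53 in Oosp1, 0.29 in Cd9, 0.0069 in Izumo1r, 0.06 in Zp3, 0.0059 in Gdf9, 0.30 in Zp1, -0.17 in Zp2, 0.30 in Astl and -0.34 in Bmp15, in order of transcript length. The principal transcripts ran from 972 bases in Oosp1 to 3060 in Bmp15. Over the 9 genes the difference correlated with log2 transcript length at -0.63 in CBR+SAM, -0.40 in CBR and -0.47 in DMSO (Pearson, across genes). Astl, at 2377 bases, stood at 0.30 in CBR+SAM, between Zp2 and Bmp15, which were both below 0. In CBR, Izumo1r had a difference of 0.42 and Astl one of -0.33, and in DMSO the widest was 0.24 in Zp3. Across the 5573 genes the difference between replicates correlated with log2 transcript length at -0.17 in CBR+SAM, -0.12 in CBR and -0.05 in DMSO (Pearson, across genes, which are not independent replicates). The part of transcript length in the values of these genes was not tested. CBR+SAM replicate 2 held the highest value of 3 of the 9 genes and the lowest of 2, and CBR+SAM replicate 1 the lowest of 4.

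**Figure D3:**
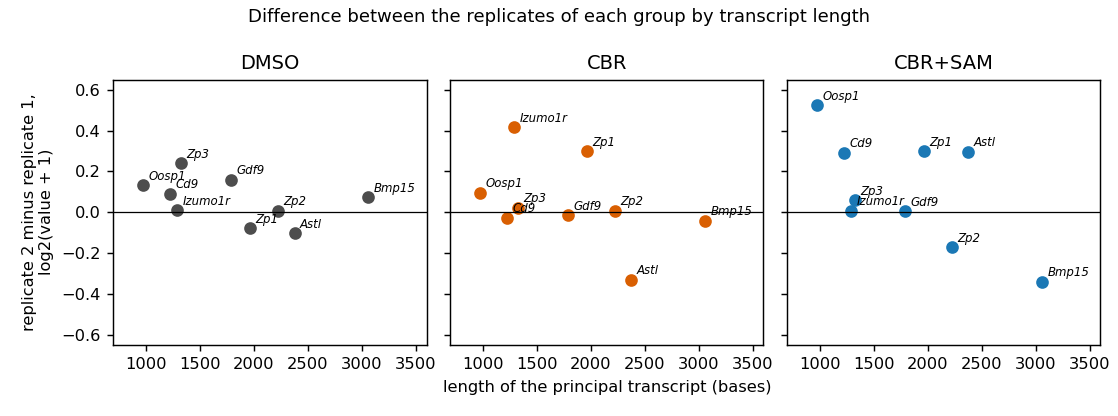
Difference between replicate 2 and replicate 1 of each group on the log2(value + 1) scale, against the length in bases of the principal transcript of each of the 9 genes. In CBR+SAM the shortest transcript, Oosp1, is highest at 0.53 and the longest, Bmp15, lowest at -0.34, while Astl, the next longest, is at 0.30.

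The label of the samples was checked against marker genes. All 10 oocyte and zygote markers were high enough to test, and their summed level was 26178 to 26524 with DMSO, 26626 to 28249 with CBR and 26786 to 31264 with CBR+SAM. Dppa3 alone gave 13565 to 17885 of it. In CBR+SAM replicate 2, where the sum was highest, H1foo (464.1), Nlrp5 (115.4) and Pabpn1l (84.5) were at their lowest. For H1foo and Pabpn1l, and also Zar1, replicate 2 lay below replicate 1 in every group. H1foo, for example, read 559.6 in DMSO replicate 2 against 1035.9 in DMSO replicate 1. Nlrp5 fell from replicate 1 to replicate 2 in CBR+SAM only. Dppa3, Btg4, Ooep and Npm2 went the other way, higher in replicate 2 of every group. Of 12 cumulus and granulosa markers 10 stayed below 1 in every library. The other 2 were Serpine2 and Cyp19a1, the latter at 8.14 to 13.6. The sum of that list, nearly all Serpine2, was 508.8 to 533.0 with DMSO, 580.2 to 580.9 with CBR and 237.2 to 616.5 with CBR+SAM. The low value was that of CBR+SAM replicate 2, and its part in the results was not tested. Sperm markers summed to 11.5 to 16.3, nearly all Prm2, with 2 of 9 listed at 0 in every library. The sperm partner gene Izumo1 was listed at 0 in 5 of the 6. Oviduct markers summed to 2.89 to 4.76 and blood markers to at most 0.701.

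CBR was set against DMSO to see how the serine inhibitor alters the transcripts of the zygote. No change was detected in any of the 9 genes. The means of 7 were lower and of 2 higher with CBR, by at most 0.15 on the log2 scale. Izumo1r had the largest difference, with 149.1 ± 0.731 in DMSO and 135.7 ± 27.8 in CBR embryos (mean ± SD, n = 2), a log2 change of -0.15 (95% interval -0.55 to 0.25). Its direction rested on CBR replicate 1, without which the change was 0.06. Oosp1 went the other way, from 3731 ± 241 to 4078 ± 191, a change of 0.13 (-0.33 to 0.59), which ran from 0.063 without DMSO replicate 1 to 0.19 without DMSO replicate 2. Gdf9 stood at 291.5 ± 23.0 and 269.5 ± 2.05, a change of -0.11 (-0.43 to 0.21) that was -0.19 without DMSO replicate 1 and -0.03 without DMSO replicate 2. Zp2 stood at 62.7 ± 0.213 and 58.5 ± 0.240, a change of -0.10 (-0.43 to 0.24), and stayed between -0.10 and -0.093 with any 1 library left out.

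The test was limma on log2(value + 1) over all genes and the 6 libraries, with Benjamini-Hochberg adjustment. All 9 adjusted p-values for CBR against DMSO were 0.9999 by limma, and 0 of the 9 had an unadjusted p under 0.05, against 260 of 12249 genes. Of all genes tested 0% passed the adjusted threshold of 0.05. Groups did not overlap in 1 gene that was higher with CBR, Oosp1, where 15.7% of all genes behaved so, and in 2 that were lower, Zp2 and Gdf9, where 17.3% did. The median log2 change was -0.04 over the 9 genes and -0.01 over all genes tested, of which 48.3% had a higher mean with CBR. When each library was scaled to the same sum, 1 of the 9 was higher, and without DMSO replicate 2 there were 4.

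CBR+SAM was set against CBR to see the effect of added methyl donor in inhibited embryos. Again none of the 9 genes differed beyond its error. Means were lower with SAM in 6 genes and higher in Zp1, Cd9 and Izumo1r. Astl averaged 14.4 ± 2.47 in CBR embryos and 12.4 ± 1.95 in CBR+SAM embryos, a log2 change of -0.19 (-0.65 to 0.27). That change was -0.029 without CBR replicate 1, -0.36 without CBR replicate 2, -0.046 without CBR+SAM replicate 1 and -0.34 without CBR+SAM replicate 2. Bmp15 stood at 1398 ± 27.9 and 1276 ± 212, a change of -0.14 (-0.51 to 0.23), which was 0.029 without CBR+SAM replicate 2. Without CBR+SAM replicate 1 the change in Bmp15 was -0.31. Gdf9 stood at 269.5 ± 2.05 and 249.8 ± 0.727, a change of -0.11 (-0.43 to 0.21), which ran from -0.12 to -0.10 with any 1 library left out. The difference in Oosp1 was -0.06 (-0.52 to 0.40), and 0.21 without CBR+SAM replicate 1.

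In that comparison the adjusted p-values ran from 0.988 to 0.998 by limma, and 0 of the 9 had an unadjusted p under 0.05, against 378 of all genes. The genes called made up 0.00816% of those tested, namely the pseudogene Gm16550 alone. Gdf9 was the only one of the 9 whose groups did not overlap, in the lower direction, where 12.5% of all genes had that pattern, and 0 of the 9 were higher without overlap, against 15.0%. The median change was -0.02 over the 9 genes and 0.01 over all genes tested, of which 52.4% had a higher mean with CBR+SAM. Genes with a higher mean numbered 1 with equal library sums, 1 without CBR replicate 1 and 5 without CBR+SAM replicate 1.

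CBR+SAM against DMSO shares its libraries with both comparisons above and is no independent evidence. The comparisons above likewise share the CBR libraries, which enter them with opposite sign, so they are not independent of each other. Means were lower in 8 of the 9 genes, and the exception was Oosp1, at 3731 ± 241 with DMSO and 3984 ± 1015 with CBR+SAM, where the log2 change of 0.07 was -0.19 without CBR+SAM replicate 2. Gdf9 had the largest difference, from 291.5 ± 23.0 to 249.8 ± 0.727, a log2 change of -0.22 (-0.54 to 0.10), which was -0.30 without DMSO replicate 1 and -0.14 without DMSO replicate 2. Izumo1r went from 149.1 ± 0.731 to 141.0 ± 0.482, a change of -0.08 (-0.48 to 0.32), and Zp2 from 62.7 ± 0.213 to 57.9 ± 4.92, one of -0.12 (-0.45 to 0.22) that was -0.20 without CBR+SAM replicate 1 and -0.03 without CBR+SAM replicate 2. These 3 genes were lower without overlap, a pattern found in 12.1% of all genes, and 0 were higher without overlap, against 12.4%. All adjusted p-values were 0.9997 by limma, with an unadjusted p of 0.146 for Gdf9, and 0.00816% of genes were called, once more Gm16550. The median change was -0.09 over the 9 genes and -0.0048 over all genes tested, of which 49.0% had a higher mean with CBR+SAM. Genes with a higher mean numbered 0 with equal library sums and 3 without either DMSO replicate 2 or CBR+SAM replicate 1.

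Across the 3 comparisons all 27 intervals of the 9 genes contained 0. They reached from -0.65 to 0.59, so each of them excluded a log2 change of 1 in either direction. With 2 libraries per group, changes within these intervals were not excluded. This does not show that the groups are alike.

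**Figure D4:**
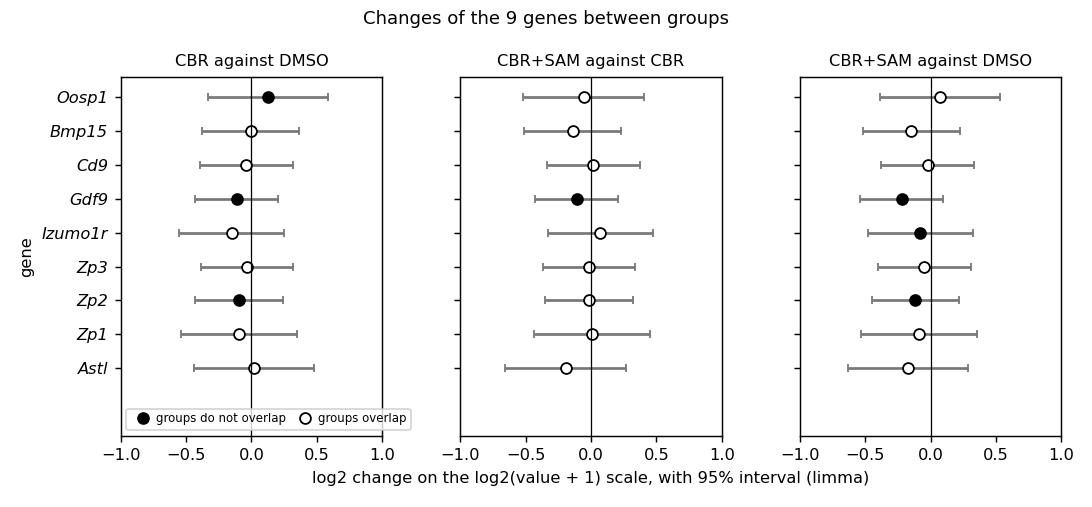
Log2 change of each gene on the log2(value + 1) scale with its 95% interval from limma, for each of the 3 comparisons; filled points mark genes whose groups do not overlap and open points those that overlap. All 27 intervals cross 0 and stay between -0.65 and 0.59.

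Other genes that work with these 9 were examined as lists, described by counts and levels. Of 7 transcription factors of the growing oocyte 6 were tested and 0 called in each comparison (limma, adjusted). The highest were Nobox at a mean of 94.2, Lhx8 at 54.1, the TBP relative Tbpl2 at 49.0 and the zona gene activator Figla at 5.94. Of the 6, means were higher in 1 with CBR than with DMSO (1 to 4 with a library left out, the 4 without CBR replicate 2) and in 4 with CBR+SAM than with CBR (3 to 5).

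Membrane partners of CD9 were mostly scarce, and 5 of 10 were tested with 0 called. The integrin genes Itga9, Itga6, Itgb1 and Itgb3 led with means of 98.4, 34.3, 19.1 and 5.32. Cd81, a tetraspanin related to Cd9, is named after its values were seen, because it stayed at or below 0.915 in every library beside the 330.3 of Cd9. Of the 5 tested genes 4 had higher means with CBR than with DMSO (3 to 4 with a library left out) and 2 with CBR+SAM than with CBR (1 to 2).

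Among 8 further coat, processing and secreted genes 6 were tested and 0 called. Beside Oosp3 and Oosp2, the highest were Furin, a protease of the secretory pathway that cuts zona precursors, at 209.5, and the oocyte growth factor gene Fgf8 at 37.6. Means were higher in 2 of 6 with CBR than with DMSO (2 to 3 with a library left out) and in 5 with CBR+SAM than with CBR, which became 1 without CBR+SAM replicate 2.

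Of 13 receptor and Smad genes through which GDF9 and BMP15 signal, 12 were tested and 0 called. Smad2 had a mean of 55.0, the type I receptor gene Bmpr1b 37.6, Smad3 19.2 and the type II receptor gene Bmpr2 13.6. Means were higher with CBR than with DMSO in 6 of the 12 (3 without DMSO replicate 2), and with CBR+SAM than with CBR in 7 (4 without CBR+SAM replicate 2).

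Genes of cortical granule release and egg calcium signalling, 10 of 12 tested, also gave 0 calls. Wee2, a kinase of meiotic exit, had a mean of 217.6, and the membrane fusion genes Snap23, Nsf and Napa had 92.2, 65.9 and 26.3. Astl, whose product these granules carry, stood below all 4. Means were higher in 5 of the 10 with CBR than with DMSO, in 2 with equal library sums and in 3 without CBR replicate 2. With CBR+SAM they were higher than with CBR in 5 (4 to 6 with a library left out). In CBR+SAM against DMSO means were higher in 4 of 6 transcription factors, 3 of 5 membrane partners, 4 of 6 coat and secreted genes, 4 of 12 receptor and Smad genes and 4 of 10 granule and calcium genes. With equal library sums the transcription factor count was 1 and the granule and calcium count 1, and without CBR+SAM replicate 2 the coat and secreted count was 0. Without CBR+SAM replicate 1 the receptor and Smad count was 7 and the transcription factor count 2, and the latter was 2 also without DMSO replicate 2.

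For comparison of levels, the 8 genes of the subcortical maternal complex, which lies beneath the egg membrane, had a median mean of 122.8, with Zbed3 at 4380, Nlrp4f at 1685, Ooep at 1395 and Nlrp5 at 135.7. None of the 8 was called in the 3 comparisons. Means were lower with CBR than with DMSO in all 8. They were higher with CBR+SAM than with CBR in 6, and higher with CBR+SAM than with DMSO in 2. Over all genes tested, means were higher in 48.3%, 52.4% and 49.0% in these 3 comparisons, in that order. The counts of CBR against DMSO and of CBR+SAM against CBR rest on the same CBR libraries. The 6 ran from 4 to 7 with a library left out, with 4 without CBR+SAM replicate 2. For CBR+SAM against DMSO the count was 0 with equal library sums and 1 to 4 with a library left out. It was 1 without DMSO replicate 1 and 4 without DMSO replicate 2. In CBR against DMSO, 1 of the 8 was higher without DMSO replicate 2, CBR replicate 1 or CBR replicate 2.

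The genes whose pattern over the 6 libraries was most like the mean of the 9 centred profiles were Snrnp25, Ube2l3, Clptm1l, Foxr1 and Ckb, with Pearson correlations of 0.923 to 0.933. The mean profile itself was flat, from -0.10 in CBR+SAM replicate 1 to 0.07 in DMSO replicate 2 on the log2 scale. Pairs of the 9 genes correlated from -0.81 (Zp2 and Oosp1) to 0.85 (Cd9 and Oosp1). Likeness to the mean profile is therefore not likeness to each of the 9 genes. With 6 libraries and 5426 genes compared, 10 genes reached 0.9, and the values are given as a description.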

How the data were processed

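RNA of 6 libraries from 1-cell embryos was measured. Per the labels' protocols, a SMART-Seq v4 kit produced the cDNA and Nextera XT the libraries. The deposited table holds 1 signal value per gene and library, and the column sums differ between libraries. Per the submitters' processing notes, fastp, kallisto, DESeq2 and mm10 were used. Versions, settings and the scaling are not given in the sources used here. Identifiers were matched to GENCODE M21 for 35768 of 36065 genes. The 12249 genes reaching 1 in 2 or more libraries were tested with limma 3.58.1 in R 4.3.3 on log2(value + 1). The fit used a mean-variance trend and 3 groups over all 6 libraries, which leaves 3 residual degrees of freedom. P-values were adjusted by Benjamini-Hochberg with a threshold of 0.05. The same fit was also run on values simulated from the means and spreads of these data, and its outcome is not given here. Fold changes on this scale understate those of low genes. Members and lists were chosen with earlier results of these data known. All 9 genes are named, and of each list the 4 with the highest mean. The 5 most similar genes by Pearson correlation are also named, predicted genes left out. Alternatives were another pseudocount, 2 filters, 2 scalings, a replicate block, fits on 4 libraries and each library left out.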

Additional observations from a re-analysis of the deposited data

How the results depend on the processing

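No alternative called any of the 9 genes. Of their 351 log2 changes under alternatives, 162 could not differ from the reported value by construction (other filters, the replicate block, fits on 4 libraries, a library of the group not compared left out). Of the other 189 values 26 reversed, among them 22 of the 108 that left out a library of the groups compared. Gdf9 reversed in none of the 3 comparisons. With every library scaled to the same sum the direction reversed for Astl in CBR against DMSO (-0.018), for Zp1 (-0.034) and Cd9 (-0.025) in CBR+SAM against CBR, and for Oosp1 in CBR+SAM against DMSO (-0.011). This scaling moved the median log2 change of all genes to -0.044 in CBR against DMSO and -0.021 in CBR+SAM against CBR. In CBR+SAM against DMSO it moved the median to -0.077. The cause was not tested.

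Leaving out 1 library at a time reversed some directions. In CBR against DMSO the log2 change ranged from -0.25 to 0.052 for Zp1, -0.15 to 0.087 for Zp3, -0.083 to 0.0079 for Cd9, -0.14 to 0.19 for Astl, -0.36 to 0.059 for Izumo1r and -0.044 to 0.031 for Bmp15. In CBR+SAM against CBR it ranged from -0.14 to 0.16 for Zp1, -0.10 to 0.067 for Zp2, -0.046 to 0.014 for Zp3, -0.13 to 0.16 for Cd9, -0.14 to 0.28 for Izumo1r, -0.32 to 0.21 for Oosp1 and -0.31 to 0.029 for Bmp15. In CBR+SAM against DMSO it ranged from -0.24 to 0.057 for Zp1, -0.17 to 0.071 for Zp3, -0.17 to 0.12 for Cd9, -0.19 to 0.34 for Oosp1 and -0.32 to 0.023 for Bmp15. Each group left with 1 library was assumed to vary like the others.

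Among all genes, limma called 0 in CBR against DMSO, 1 when only the 4 libraries compared were fitted, and 0 to 2 with a library left out. In CBR+SAM against CBR it called 1, with 0 at a pseudocount of 0.1, 0 without a filter, 0 at a mean of at least 10, and 0 to 9 with a library left out, the 9 without CBR+SAM replicate 1. In CBR+SAM against DMSO it called 1, with 0 under those 3 settings, 0 with only the 4 libraries, and 0 to 3 with a library left out, the 3 without DMSO replicate 2. Same-numbered replicates deviated together with correlations of 0.599, 0.258 and 0.120 over 5939 genes, but the labels give only a number. With the replicate block 0, 1 and 1 genes were called, and 357, 554 and 340 had an unadjusted p under 0.05 against 260, 378 and 262 without it. The block changed no call of the 9 genes.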
